A study of Mus musculus with 4 samples.

Results

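Interleukin receptor genes were examined in normal mouse bone marrow cells labelled as pro-B cells, a population in which granulocyte and other lineage markers were also high (values with the marker lists). The genes were taken by name from the deposited array values: a probe set was included when its single gene symbol began with Il, a number and the letter r, and the 4 chains Il7r, Il2rg, Il2ra and Il2rb were left out by the rule. This gave 37 probe sets of 33 genes, out of 34760 probe sets in all, of which 21640 carry a single symbol. The source was bone marrow of untreated wild-type C57BL/6 mice without a transgene, in which pro-B lymphocytes were isolated by B220+ and c-Kit+ staining, and 4 replicate RNA samples were each hybridised to 1 Affymetrix Mouse Gene 1.0 ST array. The series was set up to compare mice carrying an NKX2-3 transgene with wild-type mice, and the arrays analysed here belong to a single wild-type group, so no comparison between groups was made. The labels give no age and do not say whether the replicates were separate animals or pools. Xist, the RNA that coats the inactive X chromosome in females, read 5.48 on the array of replicate 3 and 13.04 to 13.17 on the other 3 arrays.

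Interleukin receptors are assembled from a few chains. Type I receptors pair a ligand-specific chain with a shared chain (the common gamma chain, the common beta chain or gp130) and signal through JAK kinases and STAT factors, class II receptors of the IL-10 family do so too, several of them with IL-10RB as a shared chain, IL-1 family receptors recruit MyD88 and IRAK kinases through TIR domains, and IL-17 receptors use the adaptor ACT1. Pro-B cells are best known for their dependence on IL-7, whose receptor is outside the set described here. Several other receptors are shared with, or better known from, myeloid cells, mast cells, eosinophils and lymphocytes other than B cells.

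Values are log2 intensities per probe set. Each array was given a background line, set at the 95th percentile of 1246 probe sets for smell and taste receptors (olfactory, vomeronasal and taste families), genes taken as silent here. For replicates 1 to 4 this gave 6.53, 6.62, 6.54 and 6.59, and a probe set counted as above background only if it exceeded the line of each of the 4 arrays. The distance of a value from its array's line is called the margin. Probe sets differ in how well they hybridise, so a margin shows how far a probe set stood from background and does not order the genes by amount of mRNA. In a bulk population, fewer cells carrying a transcript and less transcript per cell cannot be told apart.

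Of the 37 probe sets, 27 (73.0%) lay above background on all 4 arrays, and these belong to 25 of the 33 genes (75.8%). By the same rule 60.0% of all probe sets, 63.5% of those with 1 symbol and 3.61% of the silent ones were above background. The receptor probe sets all have 1 symbol, so 63.5% is the nearer comparison for their 73.0%. Their share was higher, but the difference was not tested, and several of the 27 belong to the same gene (Il20rb). No share of genes over the whole table was computed to set beside the 75.8%. limma's one-sided test of the margin, adjusted by Benjamini-Hochberg over all probe sets, called the same 27 receptor probe sets, with adjusted p between 5.45e-09 and 0.00112, and 60.2% of the whole table. The margin exceeded 3 log2 units for 6 probe sets (Il6ra, Il10rb, Il17ra, Il4ra, Il10ra and Il13ra1), was between 1 and 3 for 14, and was under 1 for the other 7. Genes of every receptor subfamily were represented: 6 of 8 in the IL-1 family, 5 of 6 in the common gamma chain and IL-13 group, 2 of 2 in the common beta chain group, 5 of 6 in the gp130 and IL-12 group, 4 of 6 in class II and 3 of 5 among the IL-17 receptors. For 6 further genes of the subfamily lists no probe set met the rule, and they were not analysed here. Of the listed genes, a probe set was available for 8 of 10 in the IL-1 family and 6 of 8 in the gp130 and IL-12 group. The same held for 6 of 7 in class II and 5 of 6 among the IL-17 receptors. Whether the missing genes were above background is not known.

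**Figure D1:**
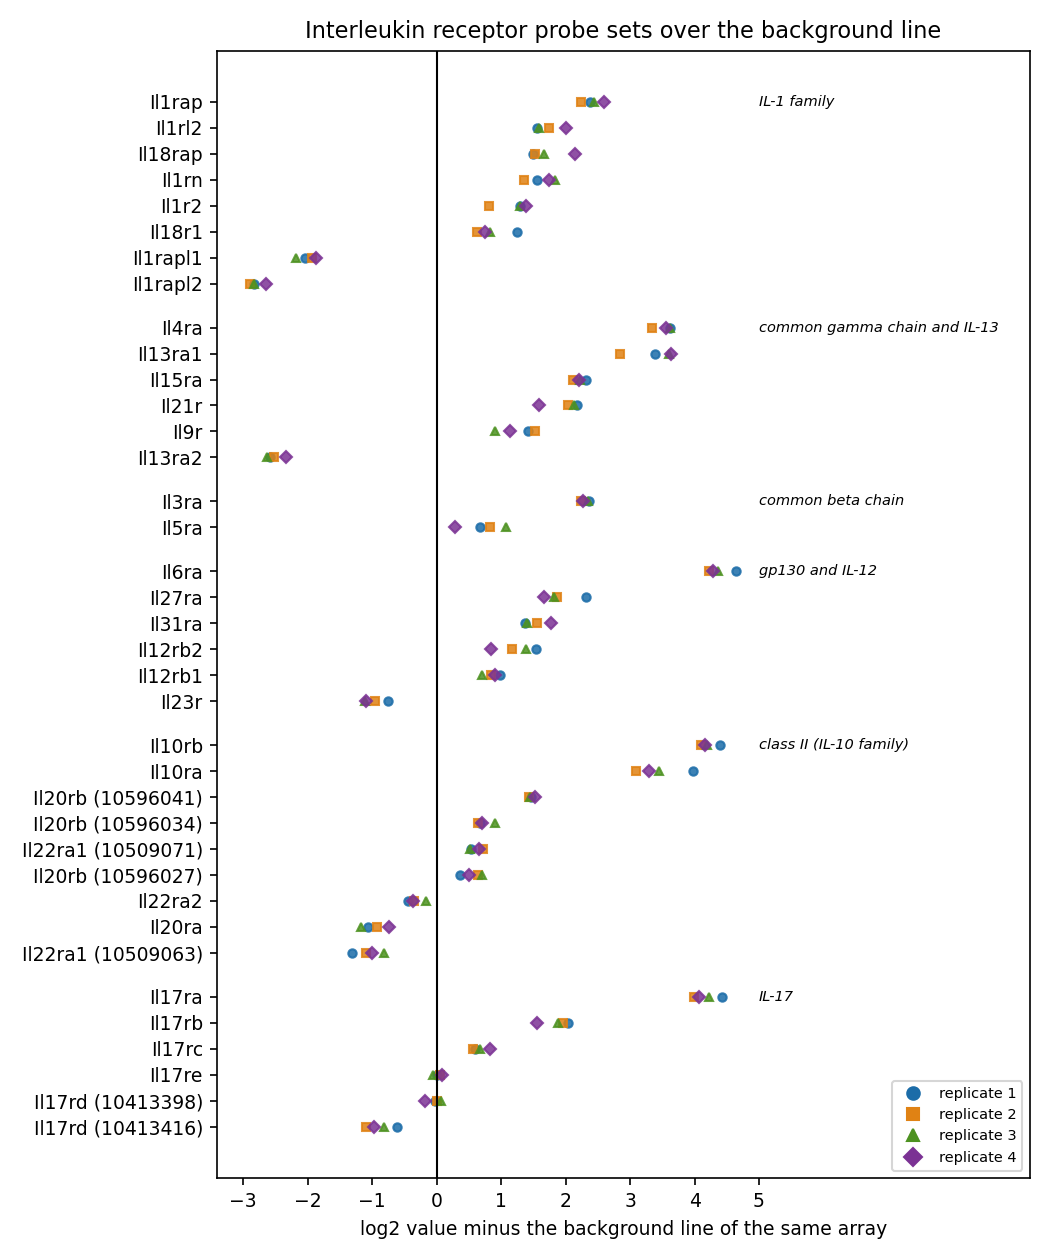
Margin of each interleukin receptor probe set over the background line: the horizontal axis is the log2 value minus the line of the same array, the vertical line at 0 is the background line, and each symbol is 1 of the 4 replicate arrays. Il6ra, Il10rb and Il17ra stand more than 3.9 log2 units to the right of the line on every array, and the 4 symbols of Il17re and of 1 Il17rd probe set (10413398) straddle it.

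The gp130 and IL-12 group held the probe set with the widest margin. Il6ra, the ligand-binding chain of the IL-6 receptor, read 11.19, 10.86, 10.90 and 10.88 (replicates 1 to 4), a margin of 4.38 ± 0.19 (SD, n = 4 arrays, limma adjusted p = 8.97e-09). All 4 arrays were far above the line, and the array of replicate 1 was the highest. Its signalling partner gp130, encoded by Il6st, read between 10.91 and 11.17. Il27ra, which pairs with gp130 to bind IL-27, read 8.84, 8.48, 8.36 and 8.25, a margin of 1.91 ± 0.28, with the array of replicate 1 again the highest. Il12rb1 and Il12rb2 form the IL-12 receptor. Il12rb1 read 7.52, 7.48, 7.24 and 7.50, close above the line with a margin of 0.86 ± 0.12. Il12rb2 read 8.07, 7.79, 7.94 and 7.44, with a margin of 1.24 ± 0.30 and the lowest value on the array of replicate 4. Il23r, which joins Il12rb1 in the IL-23 receptor, was below the line on all 4 arrays at 5.43 to 5.78. Il31ra, the ligand-specific chain for IL-31, read 7.91, 8.18, 7.94 and 8.37, while its partner Osmr stayed below the line at 5.62 to 5.93. Lifr, another gp130 partner, lay above it at 7.73 to 8.21.

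Among the receptors built on the common gamma chain and the IL-13 chains, both parts of the type II IL-4 receptor were well above background. Il4ra, which binds IL-4, read 10.15, 9.96, 10.16 and 10.15, with 3 arrays within 0.01 of each other and a margin of 3.53 ± 0.13 (SD, n = 4, limma adjusted p = 1.05e-08). Il13ra1, which joins it to bind IL-4 or IL-13, read 9.92, 9.48, 10.15 and 10.23, a margin of 3.37 ± 0.36 (adjusted p = 3.40e-07, limma), and differed more between arrays. Il13ra2, a second IL-13 binding chain often described as a decoy, was at 3.91 to 4.25, below the line on every array. Il15ra, which presents IL-15 to its signalling chains, read 8.86, 8.74, 8.76 and 8.80. The 4 arrays lay within 0.12 of each other. Il21r, the IL-21 receptor chain, read 8.71, 8.65, 8.67 and 8.17, with the array of replicate 4 alone below the rest. Il9r, the IL-9 receptor chain known from mast cells and T cells, read 7.95, 8.15, 7.44 and 7.73 and had a margin of 1.25 ± 0.28.

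Il3ra, the IL-3 receptor alpha chain, was the steadiest receptor above background. It read 8.90, 8.86, 8.89 and 8.86, an SD of 0.02 over the arrays around a margin of 2.31 ± 0.06 (limma adjusted p = 2.88e-08). Its shared signalling chain Csf2rb read 10.91 to 11.22, and the mouse IL-3-specific beta chain Csf2rb2 read 9.53 to 9.79. Il5ra, the IL-5 receptor alpha chain of eosinophils and B-1 cells, read 7.20, 7.44, 7.61 and 6.87. Its margin of 0.71 ± 0.33 (limma adjusted p = 0.00112) was held on every array but came down to 0.29 on the array of replicate 4. With the 99th percentile of the silent probe sets as the line, Il5ra was no longer above background (limma adjusted p = 0.579).

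In class II, both chains of the IL-10 receptor were well above background. Il10ra, the ligand-binding chain, read 10.50, 9.73, 9.99 and 9.88, a margin of 3.45 ± 0.37 (limma adjusted p = 3.43e-07), with the array of replicate 1 above the other 3. Il10rb, the chain shared with the receptors for IL-22 and other class II cytokines, read 10.93, 10.72, 10.73 and 10.76 and had a margin of 4.21 ± 0.13 (limma adjusted p = 5.45e-09). The receptors better known from epithelia were nearer the line. Il20rb, a chain of the IL-20 receptors, has 3 probe sets, all above background. The one with the highest mean (10596041) had margins of 1.47, 1.43, 1.45 and 1.52 on the arrays of replicates 1 to 4, within 0.13 of each other in log2 value, and the others had mean margins of 0.73 and 0.55. Il22ra1, the IL-22 receptor chain, was split between its probe sets: one (10509071) read 7.08, 7.34, 7.06 and 7.24, above the line on all arrays, and the other (10509063) read 5.21 to 5.72, below it on all arrays. Il22ra2, the soluble IL-22 binding protein, at 6.08 to 6.38, and Il20ra, at 5.36 to 5.85, were below the line on all 4 arrays. With the 99th percentile as the line, Il22ra1 had a mean margin of -0.03.

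The IL-17 receptors ranged from one of the widest margins to the line itself. Il17ra, the chain shared by the IL-17 receptors, read 10.95, 10.61, 10.76 and 10.66, a margin of 4.17 ± 0.19 (limma adjusted p = 1.10e-08). Il17rb, which joins it to bind IL-25, read 8.56, 8.58, 8.43 and 8.15, with a margin of 1.86 ± 0.21. Il17rc, which joins it to bind IL-17A and IL-17F, read 7.13, 7.19, 7.22 and 7.41, a margin of 0.67 ± 0.11 that did not pass limma's test with the 99th percentile as the line (adjusted p = 0.655). Il17re, the partner for IL-17C, read 6.54, 6.68, 6.49 and 6.67 and passed the line on 3 arrays (limma adjusted p = 0.545). Il17rd, which modulates fibroblast growth factor signalling, read 6.50, 6.62, 6.60 and 6.41 with its higher probe set and passed the line on 1 array. Its second probe set (10413416) stayed below at 5.52 to 5.91.

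The IL-1 family members above background included accessory, decoy and antagonist genes. Il1rap, the accessory chain shared by the IL-1, IL-33 and IL-36 receptors, read 8.91, 8.86, 8.98 and 9.19, a margin of 2.41 ± 0.15 (limma adjusted p = 8.14e-08). Il1rl2, the IL-36 receptor, read 8.08, 8.38, 8.12 and 8.60, with a margin of 1.72 ± 0.21. Il1r2, a decoy receptor for IL-1, read 7.83, 7.44, 7.84 and 7.98. Its value was lowest on the array of replicate 2. Il1rn, which is included by its symbol but encodes the secreted IL-1 receptor antagonist, read 8.08, 7.97, 8.38 and 8.34. Il18r1, the ligand-binding chain for IL-18, read 7.78, 7.26, 7.36 and 7.33, and its accessory chain Il18rap read 8.03, 8.14, 8.21 and 8.74. The arrays that stood out for the 2 chains were different: replicate 1 for Il18r1 and replicate 4 for Il18rap. Il18r1 had a margin of 0.86 ± 0.27, and with the 99th percentile as the line limma no longer called it (adjusted p = 0.0841). Il1rapl1 and Il1rapl2, which organise synapses in neurons, were below the line on every array at 4.36 to 4.72 and 3.71 to 3.95.

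Whether whole receptors were represented was read from 17 receptor complexes of a pair of chains each, a list written after the values were seen. Both chains were above background in 13 of them: the receptors for IL-3, IL-5, IL-6, IL-10, IL-12, IL-18, IL-22, IL-25, IL-27 and IL-36, the type II receptors for IL-4 and for IL-20, and the receptor for IL-17A and IL-17F. The other 4 each lacked one chain above the line: Osmr for IL-31, Il23r for IL-23, Il20ra for the type I IL-20 receptor and Il17re for IL-17C. The IL-22 and type II IL-20 receptors counted only through the higher Il22ra1 probe set (10509071, mean margin 0.61). The other Il22ra1 probe set (10509063, mean margin -1.06) was below the line. With the 99th percentile as the line, 8 of the 17 had both chains above it. The pairs for IL-5, IL-18, IL-22, type II IL-20, and IL-17A and IL-17F no longer did. No share of gene pairs over the whole table was computed for comparison. The 17 did not include pairs with the common gamma chain, whose gene Il2rg had no single-symbol probe set. The array values do not show whether the chains of a pair were carried by the same cells.

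Most genes acting with or below the receptors were above background. The counts that follow stand beside 63.5% of all single-symbol probe sets, and their differences from it were not tested. Of the JAK kinases and STAT factors with a probe set, 9 of 9 lay above the line on all 4 arrays, as did 8 of 8 SOCS genes, which encode feedback inhibitors of this pathway, and 10 of 10 IL-1 and IL-17 adaptor genes. Stat6, which acts below the IL-4 receptor, read 10.47 to 10.82, Stat3, below the IL-6 and IL-10 receptors, read 10.88 to 11.10, and Myd88 read 10.87 to 11.26. Traf3ip2, which encodes ACT1, read 8.04 to 8.39. The 3 analysed chains among those the rule leaves out (Il7r, Il2ra and Il2rb) were also above the line, and so were 7 of 8 partner chains. Of the ligand genes, 13 of 35 (37.1%) were above it, a smaller share than the 63.5%. Those of ligands for the receptors described here included Il1b, which read 8.65, 9.39, 9.99 and 10.05, Il15, at 8.72 to 8.98, and Ebi3 and Il27, the subunits of IL-27, at 9.35 to 9.81 and 7.70 to 7.91. Il12a, a subunit of IL-12, was above the line at 8.83 to 9.09, and Il12b, the other subunit, passed it on 3 arrays at 6.41 to 6.67. Il6 at 3.81 to 4.55, Il10 at 5.14 to 5.87, Il3 at 4.14 to 4.56, Il5 at 4.92 to 5.26 and Il9 at 6.20 to 6.44 were below it on all 4 arrays. Il4 passed it on 2 arrays, at 6.40 to 6.66. For Il17f and Il25, which passed the line on all 4 arrays, limma's test did not call the margin (adjusted p = 0.184 and 0.073).

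**Figure D2:**
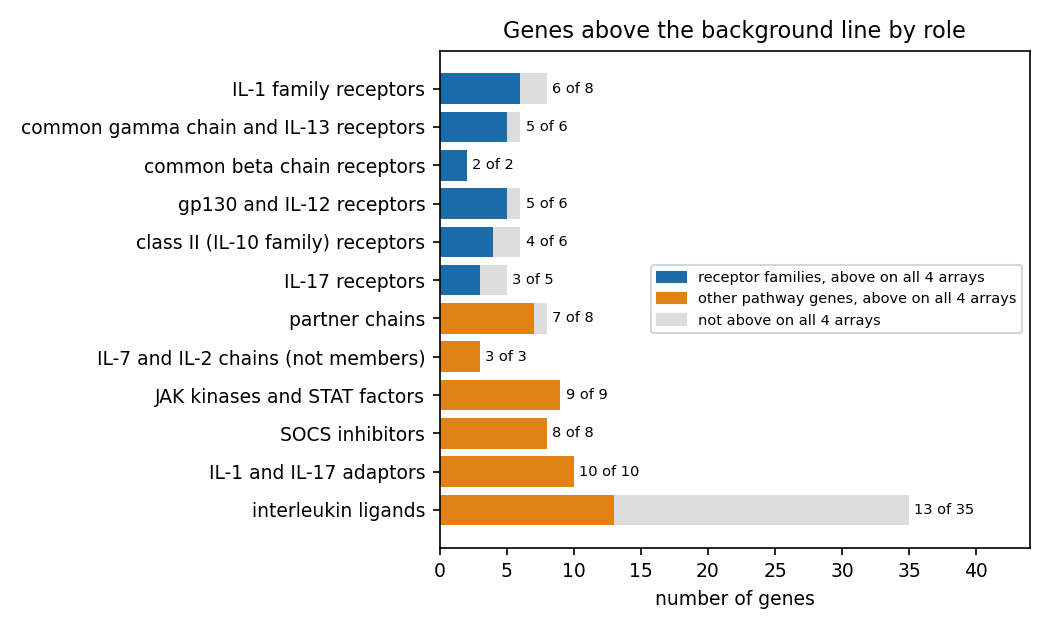
Number of genes above the background line on all 4 arrays, by receptor subfamily (blue) and by other genes of the same pathways (orange); the horizontal axis counts genes, and the full bar is the number with a probe set. All JAK and STAT (9), SOCS (8) and adaptor genes (10) with a probe set were above the line, as were 13 of 35 ligand genes.

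Taken over all 4 arrays, the receptors varied more between arrays than the typical probe set above background. The SD over the 4 arrays had a median of 0.20 log2 units over the 27 receptor probe sets (0.02 for Il3ra to 0.34 for Il10ra and Il13ra1), beside 0.13 over all 20869 probe sets above the line, and 20 of the 27 were over 0.13. A range over the arrays of more than 0.5 was found for 11 of the 27 (40.7%), beside 18.6% of all probe sets above the line. These shares are descriptions without a test. With a replicate left out, the receptors' median SD was 0.14 to 0.19, and the median over all probe sets was not recomputed. Whether the difference holds without a given array is therefore not known. The 5 largest SDs belonged to Il13ra1 (0.34), Il10ra (0.34), Il5ra (0.32), Il18rap (0.31) and Il9r (0.30).

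Over all receptors the arrays lay close together. The shift of a probe set on an array, its log2 value less the average of the other 3 arrays, had a median over the 27 receptors of 0.06, -0.05, -0.03 and 0.00 for replicates 1 to 4, against 0.02, 0.00, 0.00 and -0.01 over all probe sets above the line. Single receptors moved in opposite directions on the same array. The array of replicate 1 was the highest of the 4 for 11 receptors, with shifts of 0.64 for Il10ra, 0.48 for Il27ra, 0.46 for Il18r1, 0.35 for Il12rb2 and 0.31 for Il6ra, and was the lowest for 6, with -0.33 for Il18rap. The array of replicate 2 was the lowest for 11, among them Il13ra1 (-0.62), Il1r2 (-0.44) and Il10ra (-0.40), and the highest for 4, with 0.44 for Il9r. On the array of replicate 3, Il5ra had a shift of 0.44 and Il9r one of -0.50. On that of replicate 4, Il18rap (0.61), Il1rl2 (0.41) and Il13ra1 (0.38) were high, and Il5ra (-0.54), Il21r (-0.51) and Il12rb2 (-0.50) were low.

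**Figure D3:**
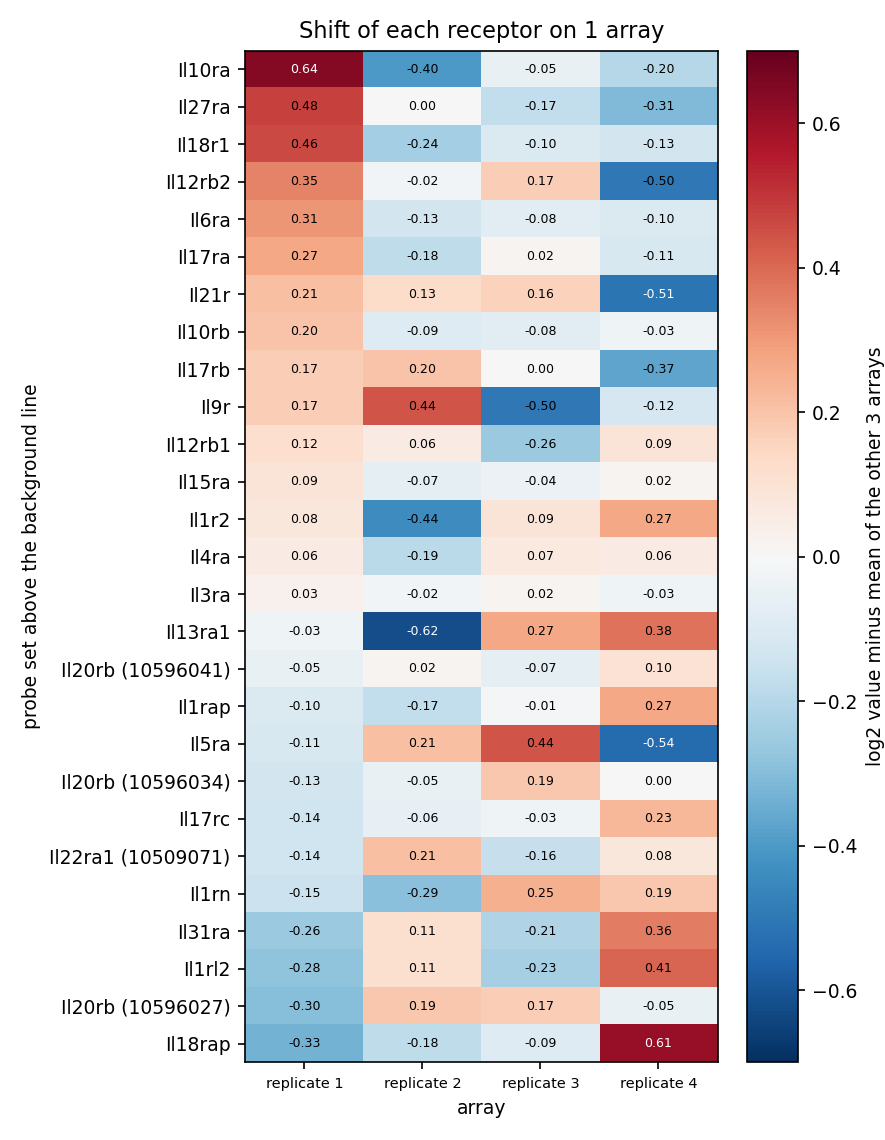
Shift of each receptor probe set above background on each array: columns are the 4 replicate arrays, rows the 27 probe sets ordered by their shift on the array of replicate 1, and the colour and the printed value are the log2 value less the average of the other 3 arrays. Il10ra is highest in the first column at 0.64, and the fourth column runs from -0.54 for Il5ra to 0.61 for Il18rap.

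The 3 receptors with the lowest and the 3 with the highest shift on the array of replicate 4 were taken, whatever their level. Their promoters are given as the 250 bases before the start of the gene (RefSeq, GRCm38.p6, on the gene's own strand from 5′ to 3′). They show the regulatory sequence of receptors at opposite ends of the shifts on 1 array. Receptors that stood out on other arrays, such as Il10ra on that of replicate 1, are not shown. A pair of motifs was searched on both strands: the STAT-type GAS motif TTCNNNGAA and the E-box CAGGTG, which E2A binds in early B cells. Matches are in capitals, and none of the 6 promoters held both motifs.
Those with the lowest shift on that array were:
Il5ra (chr6:106749038-106749287, minus strand): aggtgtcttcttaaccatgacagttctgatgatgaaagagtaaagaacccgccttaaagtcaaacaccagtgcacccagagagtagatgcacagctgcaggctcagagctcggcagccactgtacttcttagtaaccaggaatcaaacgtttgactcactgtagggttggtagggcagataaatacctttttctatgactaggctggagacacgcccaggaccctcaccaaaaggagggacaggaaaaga
Il21r (chr7:125603179-125603428, plus strand): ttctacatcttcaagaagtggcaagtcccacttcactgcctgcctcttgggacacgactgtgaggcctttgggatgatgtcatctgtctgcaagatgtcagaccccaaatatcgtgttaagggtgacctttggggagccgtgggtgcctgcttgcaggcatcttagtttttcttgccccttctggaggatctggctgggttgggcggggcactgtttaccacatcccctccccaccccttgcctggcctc
Il12rb2 (chr6:67376189-67376438, minus strand): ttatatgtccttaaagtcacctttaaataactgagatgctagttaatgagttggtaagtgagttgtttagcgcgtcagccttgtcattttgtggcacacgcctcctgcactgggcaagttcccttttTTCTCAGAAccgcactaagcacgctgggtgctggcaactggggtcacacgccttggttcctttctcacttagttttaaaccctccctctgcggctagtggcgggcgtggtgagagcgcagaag
Those with the highest shift were:
Il18rap (chr1:40515112-40515361, plus strand): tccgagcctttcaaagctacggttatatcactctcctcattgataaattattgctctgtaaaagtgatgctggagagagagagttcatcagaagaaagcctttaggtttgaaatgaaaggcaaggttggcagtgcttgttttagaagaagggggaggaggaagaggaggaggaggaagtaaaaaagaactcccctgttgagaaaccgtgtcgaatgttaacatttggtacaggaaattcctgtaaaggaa
Il1rl2 (chr1:40324339-40324588, plus strand): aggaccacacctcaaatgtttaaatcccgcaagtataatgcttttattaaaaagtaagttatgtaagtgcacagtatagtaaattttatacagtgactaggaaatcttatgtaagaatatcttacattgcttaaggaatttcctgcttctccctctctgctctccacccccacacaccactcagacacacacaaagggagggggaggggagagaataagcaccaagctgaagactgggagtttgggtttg
Il13ra1 (chrX:36111858-36112107, plus strand): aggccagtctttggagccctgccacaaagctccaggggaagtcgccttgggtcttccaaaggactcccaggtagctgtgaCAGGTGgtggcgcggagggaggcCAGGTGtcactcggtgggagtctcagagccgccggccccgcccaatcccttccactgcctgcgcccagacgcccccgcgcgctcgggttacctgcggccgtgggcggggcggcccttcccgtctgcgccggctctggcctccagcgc
Il12rb2 held 1 GAS match and Il13ra1 held 2 E-boxes, and in the other 4 these letters were not found in this window. Of the 33 receptor genes, 27 had a promoter entry, 32 entries in all. The GAS motif was found in 4 of the 32 entries (12.5%), those of Il12rb2, Il18r1, Il1r2 and Il31ra, beside 7.02% of all 32851 RefSeq entries. The E-box was found in 6 of the 32 (18.8%), those of Il13ra1, Il15ra, Il17rb, Il18r1, Il6ra and Il9r, beside 17.2% of all entries. A match describes the letters of a window and not a bound site.

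The receptors were set beside markers of early B cells and of other bone marrow lineages. Isolation by B220 and c-Kit should remove cells that lack either protein, which applies to most mature cells of the other lineages. The methods describe a flow cytometry sort, and the labels also allow magnetic separation. Early B-cell markers were above background for 11 of 12 genes (Rag2 passed the line on 3 arrays), with Cd79a, part of the B-cell receptor, at 11.71 to 12.64 and Pax5, the B-lineage factor, at 10.17 to 11.49. Of the markers of other lineages, all 13 granulocyte and monocyte genes were above background, with the granule enzymes Mpo at 13.62 to 13.96 and Elane at 13.49 to 13.91, as were 7 of 7 plasmacytoid dendritic, 7 of 7 erythroid, 4 of 4 megakaryocyte, 10 of 11 T and NK, 5 of 6 stem and progenitor and 3 of 4 eosinophil genes. Mast cell and basophil genes (4 of 8) and stromal and endothelial genes (5 of 8, 62.5%) did not exceed the 63.5% of single-symbol probe sets. Of the T-cell receptor complex genes, Cd3e was above the line at 7.27 to 7.74. Cd3g and the coreceptors Cd4 and Cd8a were only close above it, with mean margins of 0.44, 0.34 and 0.29. With the 99th percentile as the line (7.17 to 7.26), these 3 were below it on every array. Cd3d was below the background line on all 4 arrays. Of the mast cell and basophil genes, Mcpt8, Cpa3, Gata2 and Prss34 were above it on all 4 arrays, Fcer1a and Ms4a2 on 3, and Tpsb2 and Cma1 on none. Whether a list gene was restricted to its lineage was not tested, so the counts do not show that cells of that lineage were present. The arrays also do not show which cells carried a receptor. All 8 housekeeping genes were above the line and differed little, with a median shift between -0.03 and 0.03 on every array.

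Marker levels also differed between the arrays on which single receptors stood out. The mean log2 value of the early B-cell markers was 11.02, 10.18, 10.62 and 10.10 on the arrays of replicates 1 to 4, and their median shift was 0.61, -0.32, 0.15 and -0.53. Il10ra shifted by 0.64, -0.40, -0.05 and -0.20 on the same arrays, and Il12rb2 by 0.35, -0.02, 0.17 and -0.50. Il7r, the receptor chain that pro-B cells depend on, read 11.17, 10.20, 10.30 and 9.98. Like Il12rb2, it was highest on the array of replicate 1 and lowest on that of replicate 4, while Il10ra was lowest on that of replicate 2. Granulocyte and monocyte markers averaged 11.97, 11.66, 12.22 and 12.15, with a median shift of -0.02, -0.36, 0.20 and 0.27. Il13ra1 shifted by -0.03, -0.62, 0.27 and 0.38, Il1rn by -0.15, -0.29, 0.25 and 0.19, and Il1r2 by 0.08, -0.44, 0.09 and 0.27. The 3 eosinophil markers above the line averaged 8.54, 9.11, 9.05 and 8.69, with a median shift of -0.47, 0.35, 0.23 and -0.18, beside -0.11, 0.21, 0.44 and -0.54 for Il5ra. The remaining eosinophil marker, Ccr3, passed the line on only 1 array and shifted by -0.48, 0.26, -0.39 and 0.61. Its direction was opposite to that of Il5ra on the arrays of replicates 3 and 4. The 4 mast cell and basophil markers above the line averaged 8.82, 8.36, 8.92 and 8.51, with a median shift of 0.15, -0.33, 0.26 and -0.22, beside 0.17, 0.44, -0.50 and -0.12 for Il9r, which did not follow them on the arrays of replicates 2 and 3. The T and NK markers averaged 7.96 to 8.17 and had a median shift of -0.04 to 0.01. On the array of replicate 1, where Il18r1 was highest, 5 of their 10 genes above the line were higher than the mean of the other arrays and 5 lower, with shifts from -0.30 for Cd3g and Nkg7 to 1.05 for Klrb1c. The erythroid markers averaged 8.60 on the array of replicate 1 and 9.88 to 10.09 on the other 3, a median shift of -1.31. The receptors set beside each list were picked after their values were seen, and the part of these cells in the receptor shifts was not tested.

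**Figure D4:**
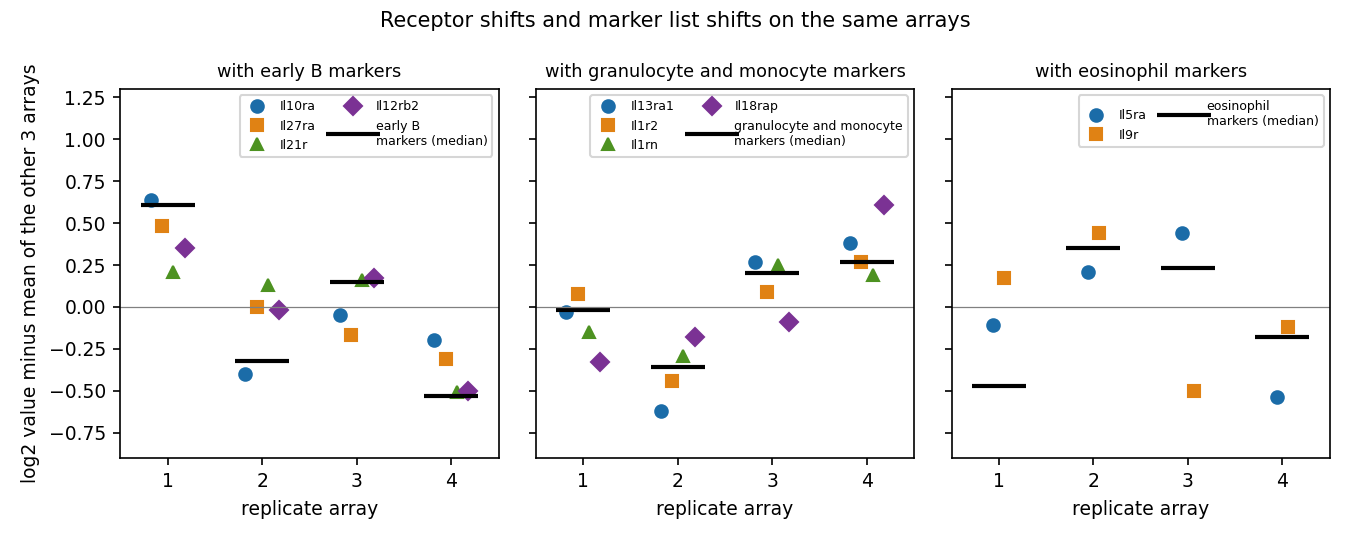
Shift of selected receptors (coloured symbols) and median shift of a marker list (black bar) on the 4 replicate arrays: the vertical axis is the log2 value less the average of the other 3 arrays, and symbols are set side by side within an array for legibility. The early B-cell bar is at 0.61 on the array of replicate 1 with Il10ra at 0.64, and the granulocyte and monocyte bar is at -0.36 on that of replicate 2 with Il13ra1 at -0.62. The receptors shown were picked after their values were seen, and some did not follow the bar. Il21r is at 0.13 on the array of replicate 2, where the early B-cell bar is at -0.32. Il18rap is at -0.33 on that of replicate 1, where the granulocyte and monocyte bar is at -0.02.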

How the data were processed

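Total RNA of the 4 wild-type pro-B samples was hybridised to Affymetrix Mouse Gene 1.0 ST arrays. The deposited table holds the authors' log2 intensities, 1 value per probe set and array, for which the methods and the submitters' processing notes name RMA (version and arrays normalised together not given in the sources used here). Probe sets were named from the platform annotation, in which 21640 of 34760 have 1 symbol, 1321 several and 11799 none listed. No coordinates of probe sets are given, since no build is named.

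The background line was the 95th percentile of the silent probe sets on each array. The margin over it was tested with limma 3.58.1 in R 4.3.3 (moderated, one-sided, Benjamini-Hochberg over 34760 probe sets, adjusted p below 0.05), after the script was tested on simulated data. Where the labels do not give separate animals, p-values measure only the spread between these arrays, whose number limits the precision. Every receptor gene could be named. Those above the line have the value of every array, the others their range, and list genes are counted, with partners and adaptors named. A gene with several probe sets was given by the one with the highest mean. The members, lists and rules were chosen with earlier results of these data known, and the receptor complexes after the values were seen. Alternatives were another line, another scaling, 3 of 4 arrays, each replicate left out, and other settings of limma and of the spread.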

Additional observations from a re-analysis of the deposited data

Results flagged for a closer look

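In 5 of the 37 receptor probe sets, 1 of the 4 arrays stood further from the rest than Dixon's 95% critical value allows. Chance gives such a gap in about 1 in 20 independent groups, or 1.85 of 37. Probe sets read on the same arrays are not independent, and the share of all probe sets with such a gap was not computed. The count therefore does not show an excess particular to the receptors. Il6ra read 11.19 on the array of replicate 1, and the other 3 arrays averaged 10.88. Il4ra read 9.96 on that of replicate 2, against 10.15 for the others, a small gap beside 3 nearly equal values. Il21r read 8.17 on that of replicate 4, against 8.68. Il12rb1 read 7.24 on that of replicate 3, against 7.50. Il1rapl2, which was below background on every array, read 3.95 on that of replicate 4, against 3.72. The 5 gaps fell on all 4 arrays, and their cause was not tested.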

How the results depend on the processing

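The count of receptor probe sets above background (27) was 27 after quantile normalisation and after cyclic loess, 27 to 28 with a replicate left out (Il17re was added without replicate 3), 28 with 3 of 4 arrays required, and 29 with the 90th percentile or with vomeronasal and taste receptors alone as the silent set. It was 22 with the 99th percentile and 20 with the median of the array as the line. The share of all probe sets above these other lines was not computed. Whether the receptors' share stays higher than that of all probe sets is therefore known only for the main line. A median by definition leaves as many probe sets of an array above it as below. limma called 27 with any replicate left out, 21 with the 99th percentile and 20 with the array median. The probe sets lost with the array median were those of Il5ra, Il12rb1, Il17rc, Il18r1 and Il22ra1 and 2 of the 3 of Il20rb. The median over the 37 probe sets of the mean margin (1.24) was 1.61 with the 90th percentile, 1.57 with vomeronasal and taste receptors alone, 0.60 with the 99th percentile and 0.48 with the array median, and 1.17 to 1.28 with a replicate left out. With the 99th percentile the mean margin was -0.03 for Il22ra1 and -0.08 for Il20rb (10596027). With the array median it was -0.15 for Il22ra1, -0.09 for Il17rc, -0.05 for Il5ra, and -0.20 (10596027) and -0.03 (10596034) for Il20rb. A higher line lowers every margin by construction. The median SD of the receptors above background (0.20) was 0.14 to 0.19 with a replicate left out, 0.18 under either scaling, and 0.41 as a range. The median over all probe sets above the line was not computed under these settings. The median shift on each array stayed between -0.07 and 0.05 under the scalings, the median as the centre and each replicate left out. Pathway and marker genes above background numbered 127, and 107 to 137 under the alternatives. Signal over background limits what can be said of the 7 probe sets with margins under 1. No paired analysis was possible because the labels give a single group.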
